A study of Homo sapiens with 9 samples.

Results

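The EGF family ligands and their ERBB receptors were examined in HuCCT1 cells, a human line established from a tumour of the bile duct epithelium (cholangiocarcinoma). The listed genes were 7 ligands (EGF, TGFA, AREG, EREG, BTC, HBEGF and NRG1) and 3 receptors (EGFR, ERBB2 and ERBB3). Members were every probe set whose gene symbol on the array platform was one of these, without regard to its values. There were 35 such probe sets for 9 of the 10 genes, among 54613 probe sets tested and 19775 genes with a named probe set. AREG had no probe set under its name alone and was not analysed here. Probe sets that the platform gives to several genes were assigned to none of them, and whether any of these reads AREG was not tested.

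The tested cells had been transfected with a vector for YAP1 carrying the S127A change (YAPS127A, 5 arrays), and the comparison cells with an empty vector (4 arrays). S127A is labelled as constitutively active, and by general knowledge it removes a phosphorylation site through which the Hippo kinases hold YAP1 in the cytoplasm. All cells were of 1 line and were grown in the same serum-containing medium, with no drug, dose or time named in the labels. The labels do not say whether arrays of a group came from separate cultures or clones. The p-values therefore weigh a difference only against the spread among these samples within each group. That spread may be technical, and the p-values may not cover variation between cultures or clones. YAP1 itself did not pass the test at any of its 3 probe sets, with log2 differences, YAPS127A minus empty vector, of 0.15 (limma adjusted p = 0.121), 0.16 (limma adjusted p = 0.171) and 0.03 (limma adjusted p = 0.803). The brightest read 12.64 to 12.81 on the YAPS127A arrays and 12.51 to 12.64 on the empty vector arrays. Whether these probe sets read the RNA of the vector was not tested, so the groups are called by their labels.

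EGF family ligands are made as membrane proteins, and proteases cut them to release the soluble factor. EGF, TGFA and AREG bind EGFR, while EREG, BTC and HBEGF bind both EGFR and ERBB4, and NRG1 binds ERBB3 and ERBB4. ERBB2 has no known ligand and pairs with the others, and ERBB3 signals through its partners because its own kinase is weak. The paired receptors feed the RAS-ERK and PI3K-AKT pathways, which control growth and survival of bile duct epithelium and of tumours derived from it.

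At the brightest probe set of each gene, 3 ligands fell with YAPS127A (EGF, EREG and BTC), 3 ligands rose (TGFA, HBEGF and NRG1), 2 receptors rose (EGFR and ERBB3) and ERBB2 did not pass the test. The signals of EGF and BTC fell 3.78-fold and 3.91-fold, with EGF below the lower quartile of every YAPS127A array, where a signal is not shown to be above background. The increases were between 1.18-fold and 1.76-fold. A probe set was called at a limma p-value under 0.05 after Benjamini-Hochberg adjustment over all probe sets. Of all genes at their brightest probe set, 14.5% rose and 14.2% fell by this rule, which is the background for the 5 and the 3 of 9 genes here.

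The promoters of the 3 ligands that fell are shown because YAP1 acts through TEAD factors, often beside AP-1 factors, and the lines show which of these factors' motifs lie near the start sites. Each line runs 5′ to 3′ on the gene's strand from 250 bases before to 50 bases after the RefSeq start, in build GRCh38.p14. Capitals mark matches to the TEAD motif CATTCC or the AP-1 motif TGANTCA, searched on both strands.
EGF, chr4:109912633-109912932, + strand: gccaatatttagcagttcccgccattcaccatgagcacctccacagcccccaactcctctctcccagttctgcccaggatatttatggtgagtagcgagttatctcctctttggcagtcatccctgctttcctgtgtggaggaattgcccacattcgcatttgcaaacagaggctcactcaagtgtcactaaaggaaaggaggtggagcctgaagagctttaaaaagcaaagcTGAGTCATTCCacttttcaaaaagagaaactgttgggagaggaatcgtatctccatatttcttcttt
EREG, chr4:74364895-74365194, + strand: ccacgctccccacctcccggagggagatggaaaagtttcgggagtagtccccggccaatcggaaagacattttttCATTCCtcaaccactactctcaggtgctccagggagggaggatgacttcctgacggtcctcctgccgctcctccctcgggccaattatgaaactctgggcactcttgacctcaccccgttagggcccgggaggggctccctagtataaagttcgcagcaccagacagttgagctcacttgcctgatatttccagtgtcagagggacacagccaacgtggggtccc
BTC, chr4:74794474-74794773, - strand: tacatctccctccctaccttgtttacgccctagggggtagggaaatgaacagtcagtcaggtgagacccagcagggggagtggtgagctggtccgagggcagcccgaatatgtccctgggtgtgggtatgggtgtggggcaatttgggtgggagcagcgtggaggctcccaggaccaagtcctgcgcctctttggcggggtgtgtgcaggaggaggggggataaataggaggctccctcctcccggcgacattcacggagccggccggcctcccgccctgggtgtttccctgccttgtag

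In EGF the AP-1 match began 17 bases and the TEAD match 12 bases before the start, and the pair overlapped by the letters both motifs share. EREG held 1 TEAD match, 175 bases before its start, and BTC held neither motif. No match was found in the windows of TGFA or HBEGF, which rose. NRG1 and ERBB3, which also rose, had no window searched, so the ligands that rose are only partly covered. The window of the second EGFR start held 1 TEAD match and 2 AP-1 matches, that of the first held none, and that of ERBB2 held 1 AP-1 match. Of 35116 promoters of the same length, 14.033% held the TEAD motif, 7.709% the AP-1 motif and 1.449% both. These matches describe the letters in the windows and do not show binding.

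EGF, the founding ligand of the family, had a log2 signal of 3.46, 3.45, 3.13, 3.34 and 3.62 on the 5 YAPS127A arrays, and of 4.99, 5.66, 5.49 and 5.13 on the 4 empty vector arrays. The groups did not overlap, and the highest YAPS127A array lay well below the lowest empty vector array. The level averaged 3.40 ± 0.18 with YAPS127A and 5.32 ± 0.31 with empty vector (SD, n = 5 and 4). The log2 difference, YAPS127A minus empty vector, was -1.92 (SE 0.14, limma adjusted p = 1.77e-06). All 5 YAPS127A arrays gave a signal below the lower quartile of their own array, against 0 of 4 empty vector arrays. A signal this low is not shown to be above background, so the fold describes the signal and not the RNA. The gene had 1 probe set, with no second one to set beside it.

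**Figure D1:**
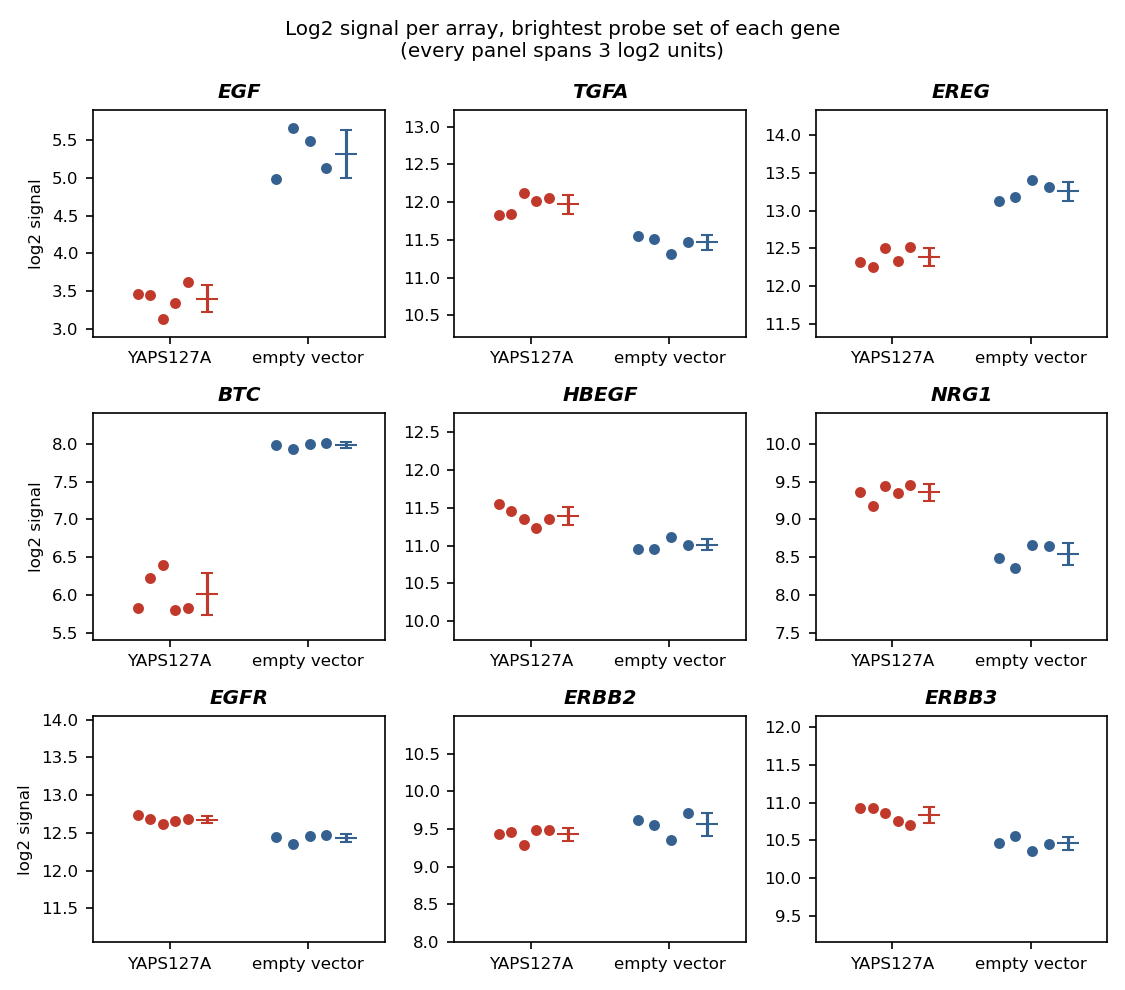
Log2 signal of the brightest probe set of each of 9 genes, with 1 point per array, YAPS127A (red) left of empty vector (blue), and the mean ± SD beside the points; every panel spans 3 log2 units but has its own range. EGF, EREG and BTC are lower with YAPS127A, ERBB2 overlaps, and the other 5 are higher without overlap.

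BTC, or betacellulin, activates EGFR and ERBB4. Its brighter probe set (241412_at) read 5.82, 6.22, 6.40, 5.80 and 5.83 on the YAPS127A arrays, and 7.99, 7.93, 8.0 and 8.02 on the empty vector arrays. The 4 empty vector arrays lay within a narrow band, far above every YAPS127A array. The level averaged 6.01 ± 0.28 with YAPS127A and 7.98 ± 0.04 with empty vector (SD, n = 5 and 4), a log2 difference of -1.97 (SE 0.12, limma adjusted p = 5.3e-07). The second probe set (207326_at) read 4.42, 4.77, 5.14, 4.67 and 4.35 with YAPS127A, and 6.39, 6.33, 6.10 and 6.32 with empty vector. It also fell without overlap, by 1.62 on the log2 scale (SE 0.14, limma adjusted p = 7.29e-06), though its mean lay below the median of all probe sets.

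EREG encodes epiregulin, a ligand of low affinity and long-lasting effect. Its brighter probe set (205767_at) read 12.32, 12.25, 12.50, 12.33 and 12.52 on the YAPS127A arrays, and 13.13, 13.18, 13.41 and 13.31 on the empty vector arrays. The means were 12.39 ± 0.12 with YAPS127A and 13.26 ± 0.12 with empty vector (SD, n = 5 and 4), and the groups did not overlap. The log2 difference was -0.87 (SE 0.08, limma adjusted p = 1.3e-05), a 1.83-fold decrease, and the signal stayed near the top of the arrays' range of 1.62 to 14.8. The dimmer probe set (1569583_at) read 6.91, 7.0, 7.14, 7.04 and 7.22 with YAPS127A, and 8.93, 8.57, 8.71 and 9.28 with empty vector. This probe set fell by 1.81 on the log2 scale (SE 0.13, limma adjusted p = 1.39e-06). Both EREG probe sets thus fell, but by 1.83-fold at the brighter one and 3.52-fold at the dimmer one, and their mean differed by -1.34.

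TGFA encodes transforming growth factor alpha, an EGFR ligand of epithelia. Its brightest probe set (205016_at) read 11.82, 11.84, 12.12, 12.02 and 12.05 on the YAPS127A arrays, and 11.55, 11.52, 11.32 and 11.47 on the empty vector arrays. Every YAPS127A array lay above every empty vector array, and the log2 difference was 0.50 (SE 0.08, limma adjusted p = 0.000742). All 3 TGFA probe sets rose. The second without overlap (205015_s_at) averaged 8.27 ± 0.11 with YAPS127A and 7.76 ± 0.13 with empty vector (SD, n = 5 and 4), and also rose by 0.50. The remaining one (211258_s_at) rose by 0.56 with a wider error (SE 0.18, limma adjusted p = 0.0421) and overlapping groups. Its call was lost without YAPS127A replicate 3, 4 or 5 or empty vector replicate 3 or 4, with log2 differences of 0.45 to 0.53 in those fits.

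HBEGF, the heparin-binding member, had 4 probe sets, of which 2 rose. The brightest (38037_at) read 11.55, 11.45, 11.35, 11.24 and 11.35 on the YAPS127A arrays, and 10.96, 10.96, 11.11 and 11.01 on the empty vector arrays. The groups did not overlap and the log2 difference was 0.38 (SE 0.07, limma adjusted p = 0.00287). The next (203821_at) rose by 0.37 (SE 0.08, limma adjusted p = 0.0069), also without overlap. The other 2 were dim, with a mean below the median of all probe sets, and were not called, at differences of 0.29 (222076_at) and 0.10 (244857_at). The first of these was called without empty vector replicate 1, at 0.36 (limma adjusted p = 0.043).

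NRG1 encodes neuregulin 1, whose many isoforms share the EGF-like domain that binds ERBB3. Its brightest probe set (206343_s_at) read 9.36, 9.18, 9.45, 9.36 and 9.46 on the YAPS127A arrays, and 8.49, 8.36, 8.67 and 8.65 on the empty vector arrays. The gap between the groups was wider than the spread within either, with means of 9.36 ± 0.11 for YAPS127A and 8.54 ± 0.14 for empty vector (SD, n = 5 and 4). The log2 difference of 0.82 (SE 0.08, limma adjusted p = 2.66e-05) was the largest increase at a brightest probe set among the 9 genes. Of its 6 probe sets 4 rose, the other 3 by 0.41 (206237_s_at), 0.43 (208230_s_at) and 0.32 (208241_at). The groups overlapped at 206237_s_at and 208241_at, and 208230_s_at and 208241_at were dim, with a mean below the median of all probe sets. The remaining 2 were not called, at -0.05 (208232_x_at) and 0.07 (208231_at). Averaged over its 6 probe sets, NRG1 rose by 0.33 (limma adjusted p = 0.000873). The increase of 208241_at lost its call without YAPS127A replicate 1, 4 or 5 or empty vector replicate 2, 3 or 4, at limma adjusted p-values of 0.0659 to 0.0984.

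EGFR, the receptor for most of these ligands, had 9 probe sets, of which 5 rose and 4 were not called. The brightest (224999_at) read 12.74, 12.69, 12.62, 12.65 and 12.68 on the YAPS127A arrays, and 12.45, 12.35, 12.46 and 12.47 on the empty vector arrays. The groups did not overlap, but the log2 difference was small, at 0.24 (SE 0.06, limma adjusted p = 0.00892). The next (201983_s_at) averaged 11.83 ± 0.08 with YAPS127A and 11.54 ± 0.10 with empty vector (SD, n = 5 and 4), a rise of 0.29 (SE 0.07, limma adjusted p = 0.00998). Another bright one (201984_s_at) had 11.70 ± 0.12 with YAPS127A and 11.58 ± 0.03 with empty vector (SD, n = 5 and 4), and did not pass at 0.13 (SE 0.07, limma adjusted p = 0.245). The 9 differences ran from 0.03 to 0.65, all above 0, and the largest belonged to a dim probe set (1565484_x_at) below its array's lower quartile on 4 of 5 YAPS127A arrays and 4 of 4 empty vector arrays. Its call was lost without empty vector replicate 2 or 4, at limma adjusted p = 0.054 and 0.0533. Another dim one (1565483_at) rose by 0.57 (limma adjusted p = 0.0485) and was no longer called when any single array other than YAPS127A replicate 2 was left out, at differences of 0.41 to 0.65.

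A pair of EGFR probe sets whose names end in x_at, a suffix for probes that may also bind other transcripts, depended on 1 array. The 1 named 211607_x_at read 9.84, 9.10, 9.51, 9.69 and 9.60 with YAPS127A, and 9.27, 9.15, 9.18 and 9.37 with empty vector. YAPS127A replicate 2 lay below every empty vector array while the other 4 lay above them, and the difference of 0.30 was not called (limma adjusted p = 0.113). Without that array it was 0.42 (limma adjusted p = 0.0052). The other, 210984_x_at, had a difference of 0.28 (limma adjusted p = 0.122), and without that array 0.39 (limma adjusted p = 0.00303).

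ERBB3, a receptor for NRG1, had 5 probe sets, of which the brightest 2 rose. The brightest (226213_at) read 10.92, 10.93, 10.85, 10.75 and 10.70 on the YAPS127A arrays, and 10.47, 10.56, 10.36 and 10.45 on the empty vector arrays. The groups did not overlap, and the log2 difference was 0.37 (SE 0.07, limma adjusted p = 0.0025). The second (202454_s_at) rose by 0.30 (SE 0.08, limma adjusted p = 0.0231), a call lost without any one of YAPS127A replicates 1 and 2 or empty vector replicates 1 and 2, at differences of 0.23 to 0.30. The other 3 probe sets were at 0.02 (1563253_s_at), -0.07 (1563252_at) and 0.03 (215638_at), and none of them was called. Averaged over its 5 probe sets, ERBB3 differed by 0.13 and was not called (limma adjusted p = 0.0751).

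ERBB2, the partner receptor without a ligand, did not pass the test at any of its 3 probe sets. The brightest (216836_s_at) read 9.43, 9.46, 9.28, 9.49 and 9.49 on the YAPS127A arrays, and 9.62, 9.55, 9.36 and 9.71 on the empty vector arrays. The groups overlapped, and the log2 difference of -0.13 had a 95% confidence interval of -0.31 to 0.05 (limma adjusted p = 0.307). The other 2 were dim, at -0.11 (210930_s_at) and -0.05 (234354_x_at).

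**Figure D2:**
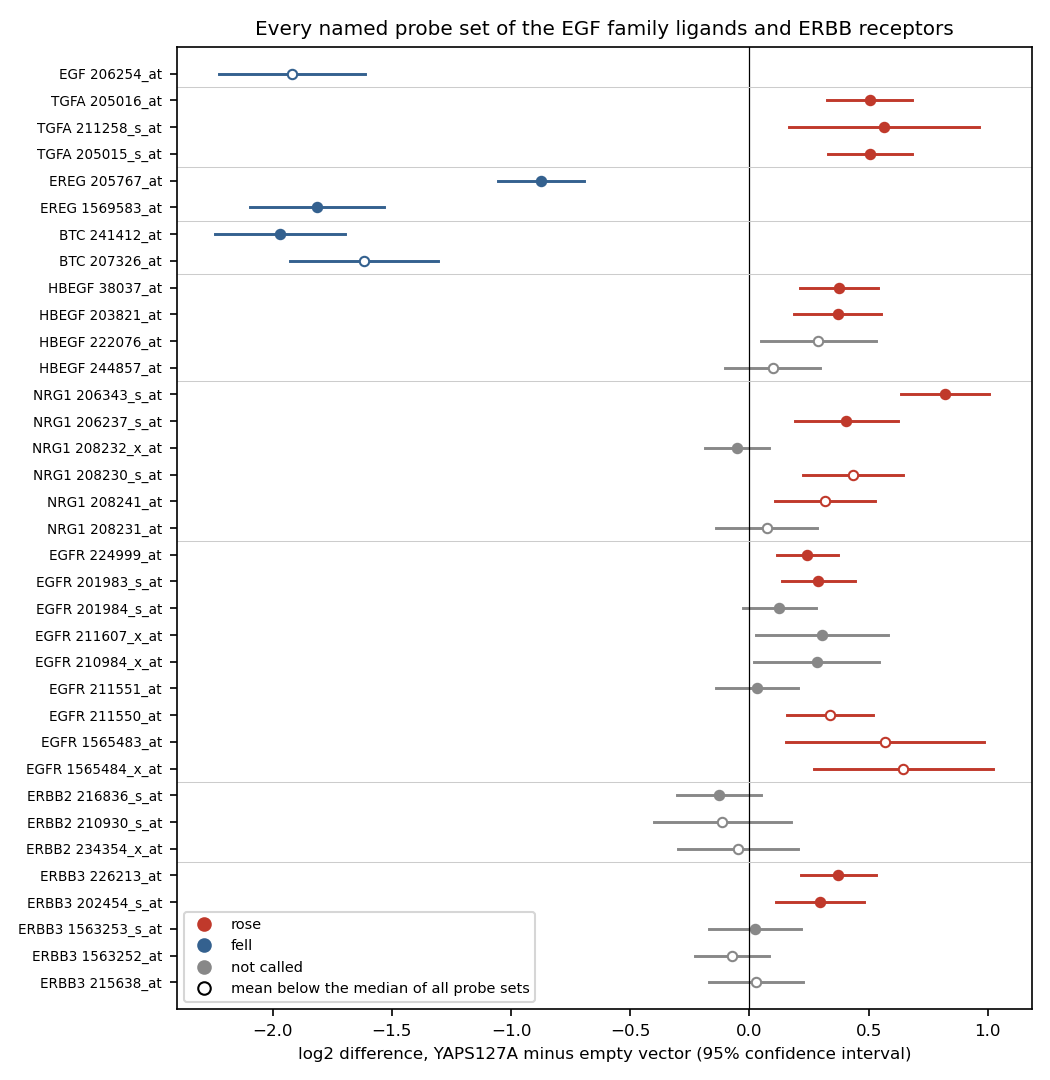
Log2 difference, YAPS127A minus empty vector, with its 95% confidence interval for each of the 35 probe sets, in red where it rose, blue where it fell and grey where it was not called; open points have a mean below the median of all probe sets. All 5 decreases belong to EGF, EREG and BTC, and no gene has probe sets called in both directions.

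Over the 35 probe sets, 16 rose and 5 fell, or 21 called, and 14 were not called. Of all probe sets, 11.9% rose and 12.0% fell. In 16 of the 35 the groups did not overlap, against 22.3% of all probe sets. The median difference of the 35 was 0.28, against 0.00 over all probe sets. The increases came from many small differences, and the 5 decreases were each larger in size than every increase. Ligand probe sets numbered 18, with 9 up and 5 down, and receptor probe sets 17, with 7 up and 0 down. Probe sets of 1 gene share its RNA, so these counts do not stand for independent genes. Of the 21 with a mean above the median of all probe sets, 11 rose and 3 fell, and of the 14 dimmer ones 5 rose and 2 fell.

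EREG and BTC lie next to each other on chromosome 4 among genes with a named probe set, beside the CXC chemokine genes, which encode attractants of neutrophils. Genes without a named probe set, AREG among them, are not in this order, so the next gene in it may not be the nearest in the genome. This window was chosen after its values were seen. Of the 24 genes with a named probe set around them, 12 on each side, 8 fell, 1 rose and 15 were not called. Of all genes at their brightest probe set, 14.2% fell and 14.5% rose. A mean signal below the median of all probe sets was found for 8 of the 24. The 8 were CXCL8, CXCL6, PF4V1, CXCL1, PF4, PPBP, CXCL3 and CXCL2, all on the chemokine side. CXCL6 fell by 2.55 on the log2 scale (SE 0.13, limma adjusted p = 8.84e-08) and CXCL2 fell by 1.86 (SE 0.07, limma adjusted p = 7.7e-09). CXCL5, among them, was at -0.24 (limma adjusted p = 0.119). Between CXCL2 and EREG lay MTHFD2L, at -0.06 (limma adjusted p = 0.734), and LOC105377276, at -0.32 (limma adjusted p = 0.0638), neither of them called. On the far side of BTC none of the 12 genes fell, and ODAPH rose by 0.58 (SE 0.09, limma adjusted p = 0.000365). On that side PARM1, PARM1-AS1, LINC02483, CDKL2, PPEF2 and SDAD1-AS1 were dim, at mean signals of 2.41 to 5.39. A decrease is harder to see at such signals. PF4V1 and PPBPP2 on the chemokine side were also dim. EGF is on the same chromosome, and none of the 2 nearest genes on either side of it, GAR1, RRH, ELOVL6 and ENPEP, was called. RRH and ENPEP had mean signals below the median of all probe sets.

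**Figure D3:**
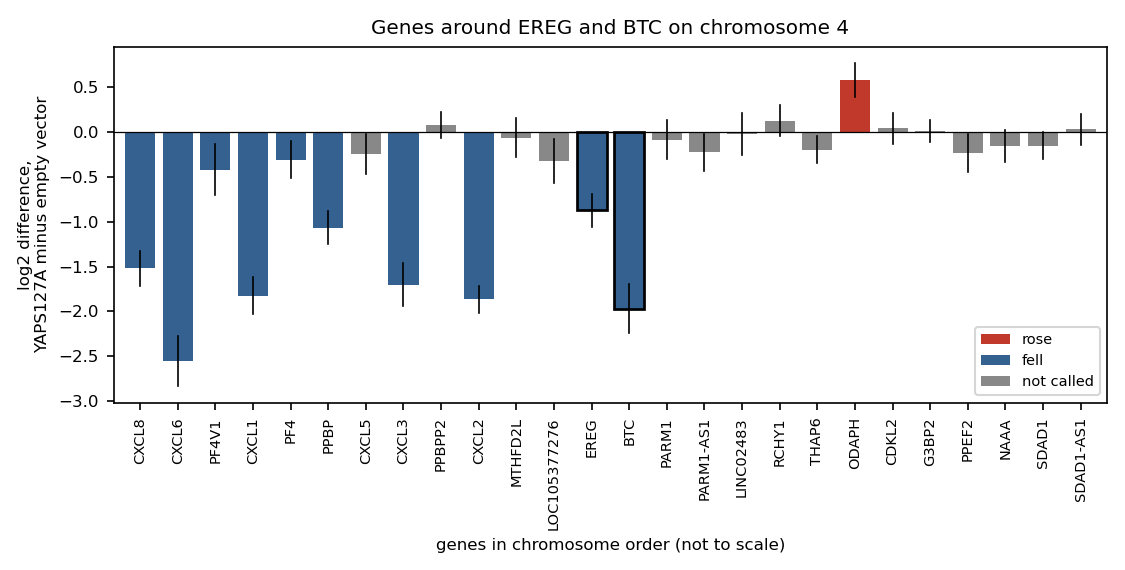
Log2 difference, YAPS127A minus empty vector, with its 95% confidence interval for EREG, BTC (outlined) and the 12 genes with a named probe set on either side, in gene order and not to scale. The 8 neighbours that fell (blue) are all left of EREG, with MTHFD2L and LOC105377276 between them and EREG.

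Among the nearest 2 genes on each side of the other called members, CYSTM1 beside HBEGF rose by 0.47 (SE 0.07, limma adjusted p = 0.000478) and VOPP1 beside EGFR rose by 0.49 (SE 0.08, limma adjusted p = 0.000739). ANKHD1, also beside HBEGF, went the other way by -0.57 (limma adjusted p = 0.0105). Over wider stretches the median difference of the 50 nearest genes ran from -0.17 around ERBB2 to 0.08 around EGFR. Subtracting it on each array left EGFR at 0.16 (SE 0.06, limma adjusted p = 0.0643), no longer called, and put ERBB2 at 0.04 (limma adjusted p = 0.757). The other 7 genes kept their calls, with EGF at -1.86, BTC at -1.88, EREG at -0.78, NRG1 at 0.86, HBEGF at 0.52, TGFA at 0.45 and ERBB3 at 0.33. Whether gene copies differ between the groups was not tested.

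**Figure D4:**
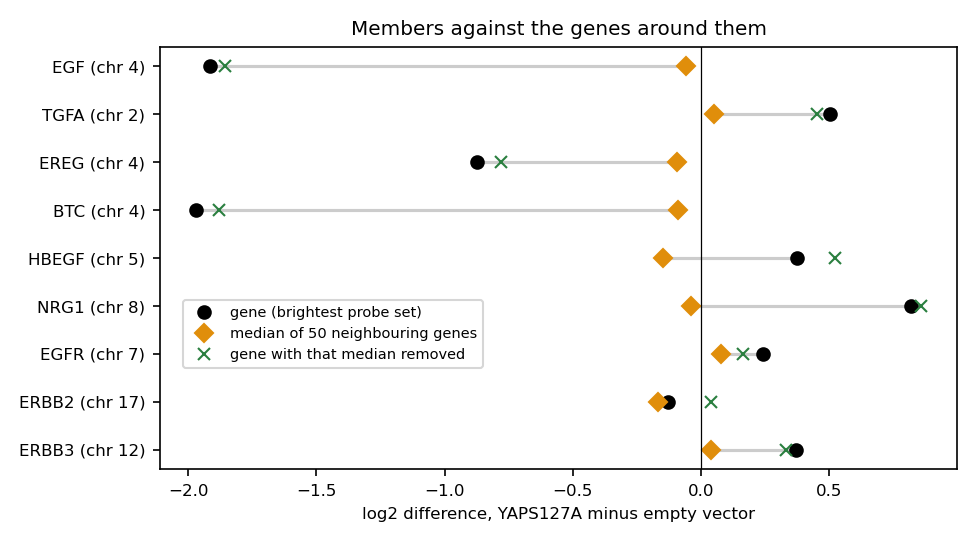
Log2 difference, YAPS127A minus empty vector, of each gene at its brightest probe set, beside the median difference of its 50 nearest genes and the gene's difference after that median is subtracted. The medians lie within 0.17 of 0, and EGFR and ERBB2 are the genes whose call or sign changes once they are subtracted.

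The genes whose profile over the 9 arrays came closest to that of BTC, after each was centred on its own mean, were SLC15A1, LRP4 and SLC40A1, with root-mean-square distances of 0.12, 0.13 and 0.13 log2 units. For EGF they were RADX, BCL2A1 and BMP2, at 0.14, 0.17 and 0.20. These 6 genes were chosen for their likeness to the members, so their own log2 differences, of -1.99 to -1.84, are a description without a test.

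The remaining family genes with a named probe set, the neuregulins NRG2, NRG3 and NRG4 and the receptor ERBB4, gave 0 calls of 4, also 0 at an unadjusted p under 0.05. All 4 had a mean signal below the median of all probe sets. ERBB4, the other receptor for BTC, EREG and NRG1, averaged 5.47 with YAPS127A and 5.57 with empty vector, a difference of -0.10 (SE 0.09, limma adjusted p = 0.471).

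Of 10 proteases and regulators that release the ligands, 2 rose, 1 fell and 7 were not called. BACE1, which cleaves NRG1 in the mouse nervous system, rose by 1.69 (SE 0.07, limma adjusted p = 1.51e-08), and RHBDF1, which escorts the protease ADAM17 to the surface, rose by 0.77 (SE 0.17, limma adjusted p = 0.00496). Subtracting its neighbours' median left RHBDF1 at 0.43 (limma adjusted p = 0.0359), and the mean of its 2 probe sets was at 0.42. ADAM19 fell by 0.40 (SE 0.07, limma adjusted p = 0.00105), and by 0.23 with the mean of its probe sets. ADAM17, the main sheddase of TGFA and EREG, was at -0.17 (SE 0.06, limma adjusted p = 0.0613). ADAM10, which sheds EGF and BTC, was at 0.16 (SE 0.06, limma adjusted p = 0.0835). In 6 of the 10 genes, ADAM17 and ADAM10 among them, the groups did not overlap, against 5599 of all 19775 genes at their brightest probe set.

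Of 16 genes that restrain the receptors or direct their turnover, 2 rose, 3 fell and 11 were not called. RNF41, a ubiquitin ligase known for degrading ERBB3, rose by 0.69 (SE 0.07, limma adjusted p = 3.86e-05), and by 0.40 with the mean of its probe sets. EPS15, an endocytic adaptor of EGFR, rose by 0.44 (SE 0.07, limma adjusted p = 0.000781), a call lost once its neighbours' median was subtracted (0.17, limma adjusted p = 0.122). The ubiquitin ligase CBLB fell by 0.39 (limma adjusted p = 0.0151), SOCS4 by 0.30 (limma adjusted p = 0.0104) and HGS, which sorts receptors in endosomes, by 0.44 (limma adjusted p = 0.0439). The HGS call was lost in 12 of its alternative fits, among them those without YAPS127A replicate 2, 3, 4 or 5 or empty vector replicate 2, 3 or 4, and HGS was at -0.28 when its probe sets were averaged. The CBLB call was lost without empty vector replicate 1 (limma adjusted p = 0.0522) and when its probe sets were averaged (-0.18, limma adjusted p = 0.0561). The SOCS4 call was lost once its neighbours' median was subtracted (-0.13, limma adjusted p = 0.238). ERRFI1, a feedback inhibitor of EGFR, was at -0.03 (SE 0.06, limma adjusted p = 0.757).

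Of 21 receptor adaptors and proximal signalling genes, 3 rose, 3 fell and 15 were not called. PIK3R3, a regulatory subunit of PI3-kinase, fell by 1.56 (SE 0.09, limma adjusted p = 2.49e-07). AKT2, a kinase downstream of PI3-kinase, fell by 1.21 (SE 0.07, limma adjusted p = 4.4e-07), with 3 of its 7 probe sets down, the other 4 not called and their mean at -0.35. GRB14, an adaptor that inhibits receptor kinases, fell by 0.76 (SE 0.12, limma adjusted p = 0.00062). MAPK3, which encodes ERK1, rose by 0.54 (SE 0.10, limma adjusted p = 0.00144), a call lost once its neighbours' median was subtracted (0.19, limma adjusted p = 0.149).

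Of 18 genes whose transcripts are known to follow ERK signalling, 4 rose, 5 fell and 9 were not called. The immediate-early genes EGR1, FOS and IER3 fell by 0.54, 0.50 and 0.53 on the log2 scale (limma adjusted p = 0.000237, 0.000383 and 0.000156), and SPRY4, a feedback inhibitor, fell by 0.45 (limma adjusted p = 0.000411). ETV5, a transcription factor, rose by 0.26 (SE 0.05, limma adjusted p = 0.00414). PHLDA1 rose by 0.33 at its brightest probe set (limma adjusted p = 0.00118), but 1 of its 6 probe sets fell and their mean differed by less than 0.01. The remaining increases were SPRY2 at 0.39 (limma adjusted p = 0.0119) and DUSP5 at 0.27 (limma adjusted p = 0.0413), and SPRED1 fell by 0.39 (limma adjusted p = 0.0129). SPRY2 lay below the median of 0.43 for its nearest genes. DUSP6, a phosphatase of ERK, was at -0.19 (limma adjusted p = 0.078). The counts of these lists stand beside the 14.5% of all genes that rose and the 14.2% that fell.

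**Figure D5:**
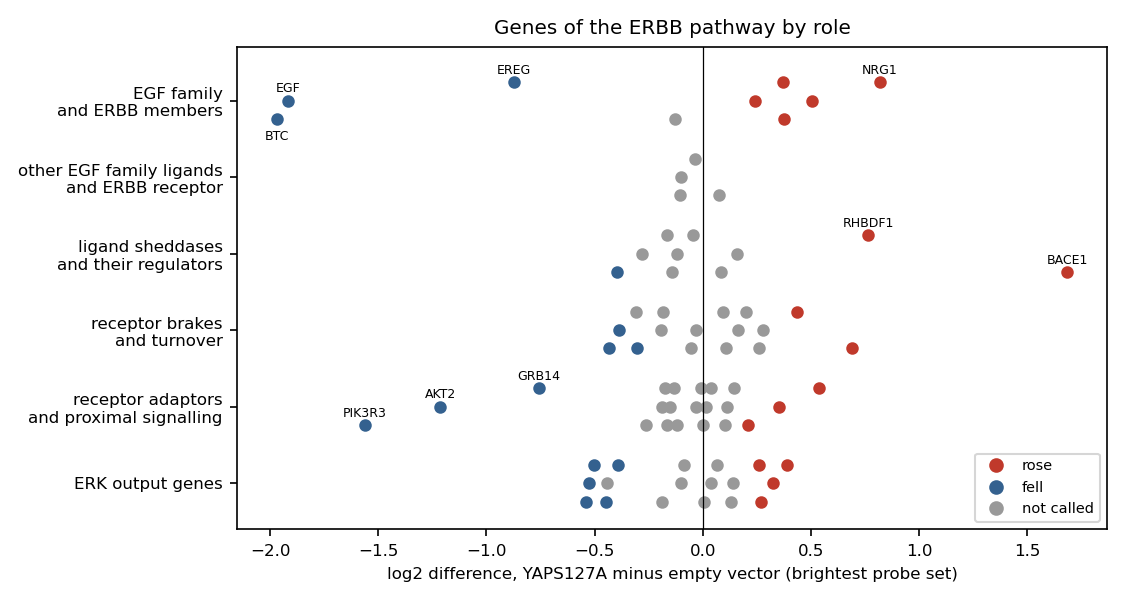
Log2 difference, YAPS127A minus empty vector, at the brightest probe set of each gene in the members and in 5 lists of the pathway, in red where it rose, blue where it fell and grey where it was not called. Calls of both directions appear in every list except the remaining ligands and ERBB4, which have none.

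Array medians lay between 5.96 and 5.97 with YAPS127A and between 5.95 and 5.97 with empty vector, and the gap between the 3′ and 5′ actin controls, a sign of RNA quality or amplification, was 0.888 to 1.58 with YAPS127A and 0.985 to 1.69 with empty vector. Of 11 epithelial and cholangiocyte markers, the keratins KRT7, KRT8, KRT18 and KRT19 with EPCAM and CDH1 had mean signals between 12.89 and 14.34, while CFTR, TFF1, SPP1, MUC1 and SOX9 fell and KRT8 and CDH1 rose. CDH1 was at 0.24, below the median of 0.39 for its nearest genes. The CFTR level averaged 4.02 with YAPS127A and 6.74 with empty vector. Of 7 hepatocyte markers 1 fell (SERPINA1), of 8 fibroblast markers LUM rose and COL1A1 fell, of 4 leukocyte markers CD14 fell, and 0 of 6 endothelial markers were called (1 at an unadjusted p under 0.05). Mean signals lay below the median of all probe sets for 2 of 11 epithelial and cholangiocyte markers. The same held for 5 of 7 hepatocyte, 6 of 8 fibroblast, 5 of 6 endothelial and 4 of 4 leukocyte markers. The epithelial and cholangiocyte list had summed log2 signals of 116.4 to 117.6 with YAPS127A and 123.0 to 123.8 with empty vector. Summed log2 signals were 43.7 to 44.2 with YAPS127A and 44.7 to 45.5 with empty vector for the hepatocyte list. For the fibroblast list they were 46.2 to 47.3 with YAPS127A and 45.1 to 46.3 with empty vector. The endothelial list summed to 28.0 to 29.2 with YAPS127A and 27.3 to 28.5 with empty vector, and the leukocyte list to 17.5 to 18.3 with YAPS127A and 17.9 to 18.3 with empty vector. The part of other cells or of RNA quality in the results was not tested. In bulk RNA, fewer cells that express a gene and less RNA per cell cannot be told apart.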

How the data were processed

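Total RNA of HuCCT1 cells was amplified, labelled with biotin and hybridised to single-colour Affymetrix arrays, per the labels' protocols. The deposited signals were taken to be on a log2 scale because they run from 1.62 to 14.8 and no unit is stated. How the authors normalized and summarised them was not given in the sources used here. There were 0 columns of other samples. Groups followed the vector named in the labels. Controls (62 probe sets) were removed, which left 54613 for the test. The platform table gave 1 gene to 41091 of the probe sets, several to 1801 and none to 11721, and 41037 matched RefSeq by gene ID.

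YAPS127A and empty vector arrays were compared with lmFit and eBayes of limma 3.58.1 under R 4.3.3 (no covariate, 11.4 total degrees of freedom), with Benjamini-Hochberg adjustment over all probe sets and a threshold of 0.05. The scripts were tested on simulated data. Each gene's value is that of the probe set with its highest mean signal. SE belongs to differences and SD to levels. Neighbours were genes with a signal above the median of all probe sets, 25 on each side. Promoters came from RefSeq (GRCh38.p14) for 7 of the 9 genes, all except NRG1 and ERBB3. Member windows on chromosome 8, which holds NRG1, were left out by rule, so NRG1 was not searched. Python 3.11.15 and matplotlib 3.10.9 drew the plots.

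The members, the lists and the rule for named genes were chosen with earlier results of these data known. The rule took every member, the called list genes with the lowest p-values (up to 6 for brakes and ERK output, otherwise up to 4), the 3 profiles most like each of the 2 members with the largest differences, and near genes called the same way as a member. Other genes, such as ADAM10, ADAM17, ERRFI1, DUSP6, SPRY2, DUSP5, SPRED1, ERBB4 and ANKHD1, were named after their values were seen. The same holds for the neighbours of EGF and those around EREG and BTC. Alternatives changed the scaling, the filter on dim probe sets, the variance model, array weights, the replicate block, single arrays, the probe set used, the neighbours' median and the actin gap.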

Additional observations from a re-analysis of the deposited data

Results flagged for a closer look

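In 6 of 70 groups of member values, 1 array stood apart from the others of its group by a gap large against the group's range. About 1 in 20 such groups would be expected for independent values without ties. That rate does not hold here, because probe sets of a gene share its RNA and some arrays had tied values. At EGFR 211551_at, for example, several arrays had the same reading of 6.28. The 6 of 70 groups are therefore a description without a test. YAPS127A replicate 2 was the array in 3 of them, all at EGFR probe sets. It read 11.97 at 201983_s_at, above the other YAPS127A arrays (11.77 to 11.83), 6.13 at 211551_at, below them (6.28 to 6.30), and 4.08 at 1565483_at, also below them (4.72 to 4.98). At EGFR 211551_at, empty vector replicate 1 read 6.0, against 6.28 to 6.32 on the other empty vector arrays. At ERBB3 215638_at, YAPS127A replicate 4 read 4.51, against 4.39 to 4.41 on the other YAPS127A arrays. At NRG1 208231_at, empty vector replicate 2 read 3.02, against 3.26 to 3.28 on the other empty vector arrays.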

How the results depend on the processing

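The 8 called genes kept their direction under every alternative run, and EGF, EREG, BTC, NRG1, TGFA and HBEGF stayed called in all of theirs. The EGFR call was lost with the neighbours' median removed and the ERBB3 call with the mean of its probe sets. With the replicate number as a block, EGFR stood at 0.24 (limma adjusted p = 0.0599), and calls numbered 15 for the member probe sets, 7 for the member genes and 10306 for all probe sets, against 21, 8 and 13052 without it; same-numbered arrays did not deviate together (correlations -0.25, 0.04, 0.01 and 0.03, and in 0 of 4 numbers were both arrays each other's best match), so the numbers are not taken as pairs. Under that block the receptor brakes had 3 calls, against 5, all of them increases. With dim probe sets left out, the brakes had 8 and the ligand sheddases 6, against 3 without that filter, and the sheddases also had 6 with trend and robust variance settings; the cause was not tested. With the neighbours' median removed, 1 of the 4 remaining family genes was called, NRG3 (-0.29, limma adjusted p = 0.00548). PHLDA1 turned to -0.0038 (limma adjusted p = 0.97) with the mean of its probe sets, of which 1 had fallen. Leaving out single arrays gave 11099 to 12497 calls over all probe sets, 17 to 22 member probe sets, 8 to 8 member genes, 8 to 10 ERK output genes, 5 to 7 adaptors, 4 to 5 brakes, 3 to 3 sheddases and 0 to 0 of the remaining family genes. An alternative left out both arrays with the largest actin gap of their group and was chosen after seeing the data; it called 17 member probe sets and 8 member genes. The alternative for linear values was not run because the values were already logarithms. Probe sets below their array's lower quartile are not shown to be above background, and 5 and 4 arrays limit the precision.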
